A study of Mus musculus with 4 samples.

Results

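Stefins and cystatins are protein inhibitors of papain-like cysteine proteases, and 8 of their genes are described here in mouse synovium, the tissue that lines the joint. They are Stfa1, Stfa2, Stfa3 and Stfa2l1 of the stefin A group, Cstb (stefin B), and the secreted cystatins Cst3, Cst6 and Cst7. They are 8 of the 22180 genes that the arrays measured with a probe set (the probes summarised together) of exactly 1 gene symbol. Where a gene had several such probe sets, the one used was chosen by its highest mean signal over the 4 arrays. The genes themselves were named with earlier results of these data known, so no test over the group is given.

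Total RNA from synovium around the tibiotalar joint was hybridised to 4 Affymetrix MoGene 2.0 ST arrays, each with RNA from 1 pool of C57BL/6J male mice aged 12 weeks. The 2 nonarthritic pools held 3 mice each and, per the labels' protocols, those mice received 150 µl of phosphate buffered saline. The 2 arthritic pools held 10 mice each and were taken on day 10, named in the labels as peak inflammation, after 150 µl of arthritogenic serum had been injected intraperitoneally on each of days 0, 2 and 7. A K/BxN serum source is named in the labels of the nonarthritic pools too, and their time point is labelled day 0. Tissue was pooled over mice, so spread between mice was not measured, and pool size and labelled day differ between the groups along with arthritis.

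Stefins work inside the cell and carry no secretion signal. Cystatins of the type 2 class are secreted, and kininogens and fetuins are larger plasma proteins built from cystatin-like domains. Stefins, type 2 cystatins and kininogens are thought of as brakes on cathepsins that escape from, or act within, lysosomes. In inflamed joints cathepsins of macrophages, fibroblasts and osteoclasts cut collagen and other matrix proteins. In mice the stefin A gene has been copied several times, and its copies are known from neutrophils, other myeloid cells and epidermis.

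Signals are on the log2 scale, and a difference of 1 is a doubling. A gene was called when its Benjamini-Hochberg adjusted p over all 22180 genes was under 0.05 in limma, and "rose" or "fell" is used only of called genes. Of all genes, 8.72% were called higher and 6.62% lower in arthritic synovium, so that 56.8% of the calls were rises (67.1% with arrays centred on their medians). That share depended on single pools: it was 52.2% and 40.8% without nonarthritic pools 1 and 2, and 35.7% and 30.9% without arthritic pools 1 and 2. No background signals were used, so a dim gene cannot be told from background. As a yardstick, 1105 olfactory receptor genes, which are largely silent outside the nose, had medians of 4.60 to 5.15 and 95th percentiles of 6.77 to 7.36 on the 4 arrays. All 13 measured synovial fibroblast markers were above that 95th percentile on every array, as were 8 of 9 skeletal muscle and 5 of 7 measured fat cell markers. On nonarthritic pools 1 and 2 the log2 of the mean linear signal was 11.94 and 11.81 for the fibroblast list. For the muscle list it was 11.55 and 12.02. The markers thus do not show synovium alone. Of the 13 fibroblast markers, 5 rose, 3 fell and 5 were not called. By log2 fold change the largest called were Clic5 (-2.48) and Htra4 (-1.885), which fell, and Cdh11 (1.7), which rose. Lubricin, Prg4, read 13.66 on both nonarthritic arrays and 13.27 and 13.52 on the arthritic arrays, and was not called. All 9 skeletal muscle markers and all 7 measured fat cell markers fell, with median log2 fold changes of -2.83 and -2.55. In bulk tissue, fewer cells of a type and less RNA per cell cannot be told apart.

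Of the 8 genes, 3 rose in arthritic synovium: Stfa2l1, Cstb and Cst7. None fell in limma at an adjusted p under 0.05, and 1, Cst3, was lower at an unadjusted p under 0.05. In 4 of the 8 both arthritic pools lay above both nonarthritic pools, as did 30.2% of all genes, and in 1, Cst3, both lay below, as did 26.1% of all genes. The median log2 fold change of the 8 was 0.42, against 0.005 over all genes.

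**Figure D1:**
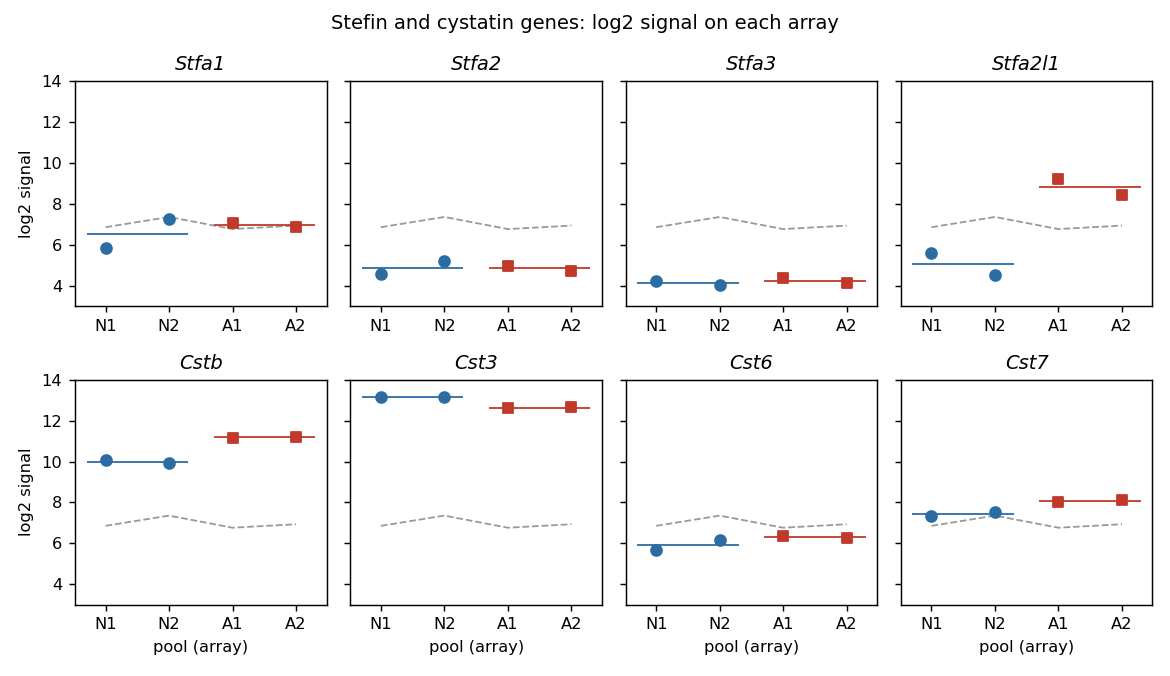
Log2 signal of each of the 8 genes on the 4 arrays (N1 and N2, nonarthritic pools, blue circles; A1 and A2, arthritic pools, red squares); horizontal lines are group means and the dashed line is the 95th percentile of olfactory receptor genes on each array. Stfa2l1 moved from 5.61 and 4.54 to 9.23 and 8.42, while Stfa2 and Stfa3 lay below the dashed line on every array.

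The stefin A copies sit side by side on chromosome 16 in the RefSeq annotation (GRCm38.p6), so the sequence upstream of each is shown first, because a copy that rose and copies that were not called have closely similar windows. Each is the 250 bases before the annotated start, 5′ to 3′ on the gene's own strand. Capitals mark exact matches, on either strand, to GAGGAA (a core of the sites of PU.1, a factor of myeloid cells), to TTNNGNAA (a core of C/EBP sites, bound by factors of granulocytes among others) and to CTTTAAAA, a TATA-like run; neighbouring matches can touch. The windows are chr16:36156561-36156810 (plus strand) for Stfa2l1, chr16:36183962-36184211 (plus strand) for its neighbour Cstdc4, chr16:36408364-36408613 (minus strand) for Stfa2, chr16:36276898-36277147 (plus strand) for Stfa1 and chr16:36455393-36455642 (minus strand) for Stfa3.
Stfa2l1: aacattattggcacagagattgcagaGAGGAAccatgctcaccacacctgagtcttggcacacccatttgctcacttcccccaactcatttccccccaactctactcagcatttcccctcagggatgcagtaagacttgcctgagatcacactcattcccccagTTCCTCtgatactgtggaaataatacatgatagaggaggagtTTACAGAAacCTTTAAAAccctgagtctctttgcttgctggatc
Cstdc4: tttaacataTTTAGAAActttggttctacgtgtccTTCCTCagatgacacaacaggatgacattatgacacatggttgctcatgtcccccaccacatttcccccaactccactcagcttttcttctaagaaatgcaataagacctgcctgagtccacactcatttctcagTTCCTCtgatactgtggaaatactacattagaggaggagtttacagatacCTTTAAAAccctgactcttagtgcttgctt
Stfa2: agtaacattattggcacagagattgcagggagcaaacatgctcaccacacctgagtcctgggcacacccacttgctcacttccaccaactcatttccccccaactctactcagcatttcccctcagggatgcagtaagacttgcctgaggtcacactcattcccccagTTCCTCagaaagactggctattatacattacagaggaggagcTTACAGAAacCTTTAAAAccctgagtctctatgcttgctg
Stfa1: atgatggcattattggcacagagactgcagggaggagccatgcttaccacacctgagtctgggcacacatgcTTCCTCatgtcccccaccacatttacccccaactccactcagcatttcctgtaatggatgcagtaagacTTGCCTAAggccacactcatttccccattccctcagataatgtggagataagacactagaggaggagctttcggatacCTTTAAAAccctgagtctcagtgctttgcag
Stfa3: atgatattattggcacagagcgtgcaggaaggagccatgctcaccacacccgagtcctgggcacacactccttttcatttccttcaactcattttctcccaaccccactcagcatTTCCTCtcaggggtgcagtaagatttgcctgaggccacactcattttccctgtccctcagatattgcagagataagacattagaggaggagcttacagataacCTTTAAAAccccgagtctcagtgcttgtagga

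The window of Stfa2l1 was 89.4% identical to that of Stfa2 over their alignment, 80.9% to Stfa1, 80.5% to Stfa3 and 72.9% to Cstdc4. The unrelated windows of Cst3 and Cst7 reached 42.4% and 50.7% against it, which shows what the same alignment gives without close descent. All 5 printed windows hold CTTTAAAA, beginning 34 bases before the start in Stfa2l1, 30 in Cstdc4, 30 in Stfa2, 31 in Stfa1 and 32 in Stfa3. This run was picked after the sequences had been seen. It occurs in 2.31% of the windows of 27025 genes and in 7 of the 10 stefin A cluster genes with a window, while TATAAA occurs in 13.0% of all genes and in 0 of those 10. Cstdc3 has 2 listed windows; the first was used for these counts and its identity, and the second, unlike the first, holds both CTTTAAAA and GAGGAA. Matches to GAGGAA were found in 7 of the 10 (23.1% of all genes) and TTNNGNAA in 7 of the 10 (36.9% of all genes). Stfa2l1 and Cstdc4 have 2 matches to GAGGAA each, and Stfa2, Stfa1 and Stfa3 have 1 each. Among windows not printed, that of Csta1 also has 2, the second of Cstdc3 has 4 and that of Cstdc5 has 1. None of these 3 genes was called, so the number of matches does not separate genes that rose from the others. TTNNGNAA has 1 match each in Stfa2l1, Cstdc4, Stfa2 and Stfa1 and none in Stfa3. These matches describe the letters and are not binding measurements.

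Stfa2l1, a stefin A-like gene, read 5.61 and 4.54 in nonarthritic pools 1 and 2 and 9.23 and 8.42 in arthritic pools 1 and 2. Both arthritic signals lay far above both nonarthritic ones, and both pairs of pools were wide apart. A gap as large as the 1.07 between the nonarthritic pools was seen in 0.915% of all genes, and one as large as the 0.81 between the arthritic pools in 1.53%. The mean rose from 5.08 ± 0.76 to 8.83 ± 0.57 (SD, n = 2 pools), by 3.75 ± 0.37 SE on the log2 scale (limma adjusted p = 0.000633). The point estimate is 13.5-fold, and its limma interval ran from 2.90 to 4.60 on the log2 scale. The nonarthritic signals stood at percentiles 74.9 and 31.8 of olfactory receptor genes, so the fold may be understated. The arthritic signals stood at percentiles 100 and 99.8. The adjusted p was 0.056 without arthritic pool 1 and 0.0594 without arthritic pool 2, with log2 fold changes of 3.35 and 4.16.

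Cstdc4, the stefin A-like gene next to Stfa2l1, was the only called gene among 15 measured relatives outside the 8, which were listed as other stefins and type 2 cystatins. It read 4.21 and 3.69 in the nonarthritic pools and 5.89 and 6.08 in the arthritic pools, with no overlap, and rose by 2.04 ± 0.21 on the log2 scale (limma adjusted p = 0.000709). All 4 signals were dim, at percentiles 34.4 and 8.24 of olfactory receptor genes in the nonarthritic and 83.3 and 83.7 in the arthritic pools. Since none was above the 95th percentile, the size of this change is uncertain and no fold is given. The call was lost without arthritic pool 2 (adjusted p = 0.0747).

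Stfa1, another stefin A copy, read 5.83 and 7.24 in the nonarthritic pools and 7.08 and 6.88 in the arthritic pools. The arthritic pools were close together and lay between the nonarthritic ones. Its nonarthritic gap of 1.41 was matched or passed by 0.397% of all genes. The log2 fold change was 0.44 ± 0.39 (limma adjusted p = 0.515; 95% interval -0.45 to 1.34), and it turned to -0.26 without nonarthritic pool 1 and stood at 1.15 without nonarthritic pool 2.

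Stfa2 read 4.55 and 5.22 in the nonarthritic pools and 4.96 and 4.73 in the arthritic pools, all near the olfactory receptor medians. Its log2 fold change was -0.04 ± 0.23 (limma adjusted p = 0.939), with a 95% interval of -0.58 to 0.50. The interval of Stfa2l1, whose upstream window is the most similar, ran from 2.90 to 4.60; the difference between the 2 genes was not itself tested. Stfa3 read 4.21 and 4.02 in the nonarthritic pools and 4.36 and 4.14 in the arthritic pools, with overlapping groups. Its log2 fold change was 0.13 ± 0.17 (limma adjusted p = 0.67; interval -0.26 to 0.53), and all 4 signals were below the olfactory receptor medians of their arrays. For both genes a change at such signals may not have been detectable. Nonarthritic pool 2 read dim genes higher than the other arrays did, with an olfactory receptor median of 5.15 against 4.68 on nonarthritic pool 1. Stfa1 and Stfa2 were also higher on that array, while Stfa2l1, Cstdc4 and Stfa3 were lower. The part of this shift in the values of dim stefins was not tested.

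Along the chromosome, 11 stefin genes from Csta1 to Stfa3 were measured, and 2 rose, the neighbours Stfa2l1 and Cstdc4. The other 9 were not called, with log2 fold changes from -0.39 to 0.44. None of the 11 fell in limma, and 0 were lower at an unadjusted p under 0.05. The 2 nearest measured coding genes on each side, a choice added after the rule for naming genes was set, were Fam162a (0.63) and Ccdc58 (0.01) beyond Csta1 and Casr (-1.02) and Cd86 (-0.27) beyond Stfa3. Of these, Casr, the calcium-sensing receptor, fell (limma adjusted p = 0.00461) and the others were not called. The copies are close enough that probes may read more than 1 of them. The platform's table gave each of the 25 probe sets of stefins and type 2 cystatins a single symbol, and 0 carried several.

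**Figure D2:**
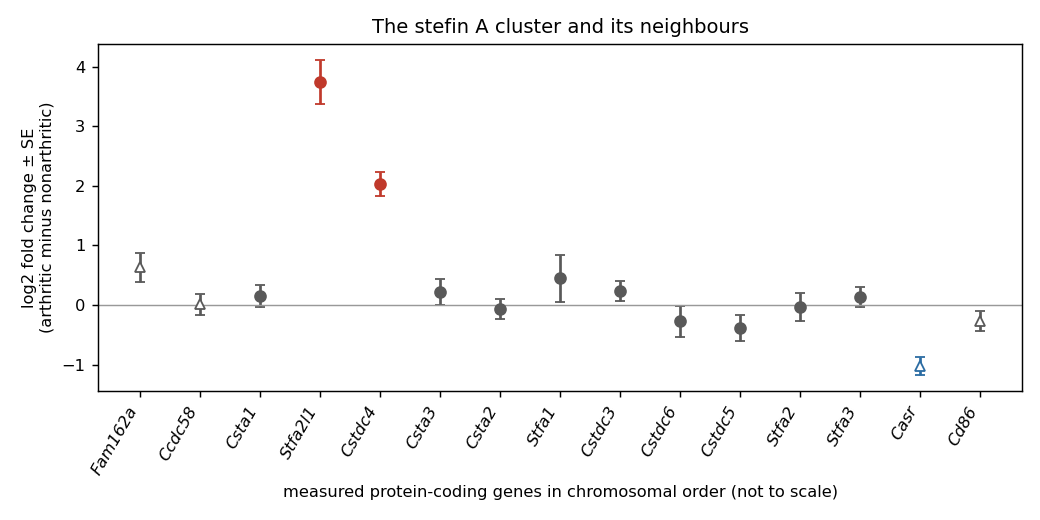
Log2 fold change (arthritic minus nonarthritic, ± SE from limma, n = 2 pools a group) of the stefin A cluster genes (filled circles) and the 2 nearest measured coding genes on each side (open triangles), in chromosomal order and not to scale; red marks genes that rose, blue a gene that fell. Stfa2l1 and Cstdc4 stand at 3.75 and 2.04, and the other 9 stefins lie between -0.39 and 0.44.

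The values beside upstream similarity are a description without an order, since Stfa2, Stfa3, Cstdc4 and Cstdc5 lay below the olfactory 95th percentile on every array. Stfa2 at 89.4% identity and Stfa1 and Stfa3 at 80.9% and 80.5% had log2 fold changes of -0.04, 0.44 and 0.13, and Cstdc4 at 72.9% had 2.04. Cstdc5, at 70.1%, read 5.2 and 5.79 in the nonarthritic pools and 5.11 in both arthritic pools. Its log2 fold change of -0.39 ± 0.21 was not called (limma adjusted p = 0.28), and its other probe set gave -0.22.

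**Figure D3:**
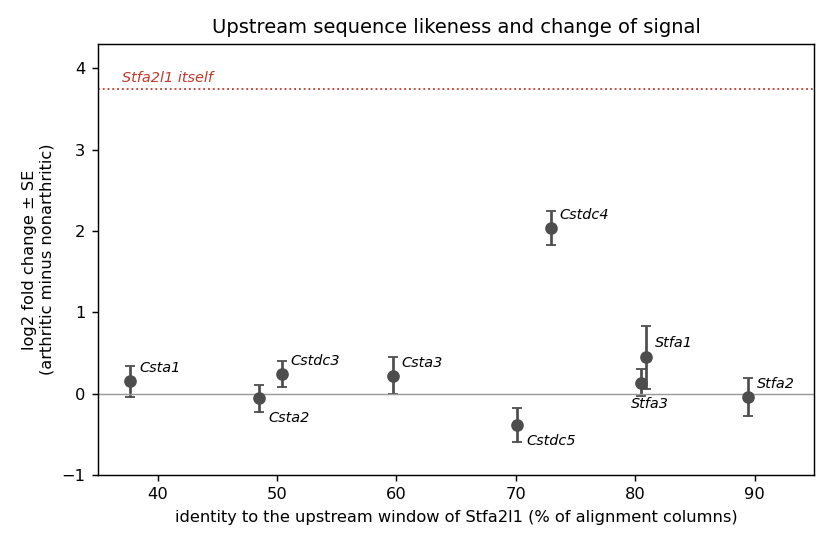
Identity of the 250-base upstream window to that of Stfa2l1 (x axis, percent of alignment columns) and log2 fold change ± SE (y axis) for the 9 other stefin A cluster genes with a window; the dotted line is Stfa2l1 itself at 3.75. The gene closest in sequence, Stfa2 at 89.4%, stands at -0.04.

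Most neutrophil markers rose in the same comparison as Stfa2l1, in which 8.72% of all genes rose. Of 17 measured neutrophil genes 12 rose and none fell (0 were lower at an unadjusted p under 0.05 in limma), with a median log2 fold change of 2.56. The log2 of their mean linear signal was 7.56 to 7.94 in nonarthritic and 10.30 to 10.52 in arthritic pools. The chemokine receptor Cxcr2 rose by 3.63, the calgranulin S100a8 by 3.67 and the gelatinase Mmp9 by 3.84 on the log2 scale. The neutrophil genes not called were Lcn2 (0.575), Ngp (0.575), Camp (0.37), Mpo (0.145) and Mrgpra2b (-0.445). In nonarthritic pool 1, where Stfa2l1 read higher than in pool 2, 10 of the 17 neutrophil genes did too. In arthritic pool 1, where Stfa2l1 again read higher, only 2 of the 17 did. The part of neutrophil numbers in the rise of Stfa2l1 was not tested. Skin, another source of stefin A, was represented by 16 measured keratinocyte markers. Of these Tgm1 rose, Krtdap and Epcam fell, and the others were not called. The log2 of their mean linear signal was 7.79 to 7.82 in nonarthritic and 7.41 to 7.42 in arthritic pools. Krtdap, at 9.64 and 9.66 and then 6.68 and 7.01, weighs heavily in that mean. The median log2 fold change of the 16 was -0.0075. The epidermal keratin Krt1 read 7.16 and 7.17 in nonarthritic and 7.07 and 7.26 in arthritic pools, and Krt10 read 8.31, 8.37, 8.40 and 8.37 in the same order.

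The genes most like Stfa2l1 over the 4 arrays, after each gene's own mean was subtracted, were Capn6, a calpain-family gene, Acod1, which makes itaconate in activated macrophages, and Fbn2, a fibrillin. Their summed absolute differences from Stfa2l1 over the 4 arrays were 0.79, 0.83 and 0.90 log2 units. All 3 share with it a higher signal in pool 1 than in pool 2 of each group. That order largely follows from their choice by likeness and is not a separate result. Acod1, for example, read 7.75 and 6.33 and then 10.82 and 10.49.

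Cstb encodes stefin B, an inhibitor found in the cytosol and nucleus of most cells. It read 10.07 and 9.91 in the nonarthritic pools and 11.16 and 11.22 in the arthritic pools. The groups were well apart and the pools of each group close together. The mean rose from 9.99 ± 0.11 to 11.19 ± 0.04 (SD, n = 2 pools), a 2.30-fold change of 1.20 ± 0.16 on the log2 scale (limma adjusted p = 0.00228). Without nonarthritic pool 2, arthritic pool 1 or arthritic pool 2 the call was lost (adjusted p = 0.0696, 0.0584 and 0.084), with log2 fold changes of 1.12, 1.23 and 1.17. The genes with the most similar profile were Snx20, Tcirg1 and C130050O18Rik, at summed differences of 0.07, 0.07 and 0.08 log2 units over the 4 arrays.

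Cst7 encodes cystatin F, an inhibitor of myeloid and cytotoxic lymphoid cells that is directed to lysosomes, where it can restrain cathepsin C. It read 7.34 and 7.52 in the nonarthritic pools and 8.0 and 8.1 in the arthritic pools. The groups did not overlap, and the pools of each group were close together. It rose 1.54-fold, by 0.62 ± 0.16 on the log2 scale (limma adjusted p = 0.037; interval 0.25 to 0.99). Leaving out any 1 of the 4 pools ended the call: the adjusted p was 0.148 and 0.145 without nonarthritic pools 1 and 2, and 0.153 and 0.217 without arthritic pools 1 and 2. Col6a4, Nmral1 and Pramel13 had the most similar profiles, at 0.07, 0.09 and 0.10 log2 units.

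Markers of myeloid and cytotoxic lymphoid cells moved in different ways. The neutrophil genes are given above. Of 10 mast cell genes 4 fell, 1 rose and 5 were not called. Of 13 natural killer and cytotoxic T cell genes, Gzmb alone rose (6.04 and 6.13 to 8.42 and 8.08) and none fell (0 were lower at an unadjusted p under 0.05 in limma). Their log2 mean signal was 6.94 to 7.29 in nonarthritic and 7.24 to 7.26 in arthritic pools. The receptor Ncr1, which defines natural killer cells, read 6.66 and 6.91 and then 6.49 and 6.75, below the olfactory 95th percentile of each array. Of 15 monocyte and macrophage genes 6 rose and 3 fell, with log2 mean signals of 11.01 to 11.09 in nonarthritic and 11.10 to 11.18 in arthritic pools. Cd68 rose by 0.69, and Csf1r was at -0.11 and Adgre1 at 0.52 without a call. The largest called changes of that list went both ways: Vsig4 (-2.065) and Timd4 (-1.795) fell and Mpeg1 (1.91) rose. The part of cell numbers in the rise of Cst7 was not tested.

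Cst3 encodes cystatin C, the main extracellular cysteine protease inhibitor, made by most cells. It read 13.17 and 13.13 in the nonarthritic pools and 12.61 and 12.66 in the arthritic pools. Both arthritic pools lay below both nonarthritic pools, and pools of a group differed by 0.04 and 0.05. The mean was 13.15 ± 0.03 and 12.63 ± 0.04 (SD, n = 2 pools), a log2 fold change of -0.52 ± 0.15 that just missed the threshold (limma adjusted p = 0.0596; unadjusted p = 0.01). Its 95% interval of -0.87 to -0.16 lies below 0. Cst3 passed the threshold with dim genes left out (adjusted p = 0.0462), with quantile normalization again (0.0339) and with a variance prior that depends on intensity (0.00514). A second Cst3 probe set read 10.85 and 10.62 in nonarthritic and 10.48 and 10.56 in arthritic pools, a log2 fold change of -0.22 ± 0.17. With both probe sets averaged the adjusted p was 0.167.

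Cst6 encodes cystatin E/M, an inhibitor of legumain and cathepsins best known in skin. It read 5.67 and 6.18 in the nonarthritic pools and 6.37 and 6.25 in the arthritic pools. The arthritic pools lay above the nonarthritic ones by a narrow margin, and all 4 signals were below the olfactory 95th percentile of their arrays. The log2 fold change of 0.39 ± 0.20 was not called (limma adjusted p = 0.254; interval -0.08 to 0.85).

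Fitted over all 41345 probe sets, where 1.66% were called higher and 1.89% lower, Stfa2l1 (adjusted p = 0.0259), Cstdc4 (0.0245) and Cstb (0.0317) rose and Cst7 was not called (0.112). The log2 fold changes are those given above, since each of these genes has 1 probe set.

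Of the 15 measured other stefins and type 2 cystatins, 14 were not called, and 0 fell in limma (1, Cst9, was lower at an unadjusted p under 0.05). Their signals ran from 4.02 to 6.71, so a change may not have been detectable. Cst9, a cystatin of the testis, read 5.44 and 5.81 in nonarthritic and 5.19 and 4.92 in arthritic pools, a log2 fold change of -0.57 ± 0.19 (adjusted p = 0.0865). The median log2 fold change of the 15 was -0.12, against 0.005 over all genes.

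The larger relatives split by type. Of 5 kininogen and fetuin genes 2 rose and 2 fell. Kng2, a kininogen, read 7.96 and 7.37 in the nonarthritic pools and 9.67 in both arthritic pools, and rose 4.01-fold (2.00 ± 0.21 on the log2 scale, limma adjusted p = 0.000857). Kng1, the other kininogen, read 5.39 and 5.51 and then 6.36 and 6.41, and rose by 0.94 ± 0.16 on the log2 scale (adjusted p = 0.00626). All 4 Kng1 signals were below the olfactory 95th percentile of their arrays, so the size of its change is uncertain. In both, the groups were apart, and as close copies they may share probes. The fetuins went the other way: Ahsg, which keeps calcium phosphate in solution, fell by 0.83 on the log2 scale, from 7.20 and 7.55 to 6.46 and 6.63 (adjusted p = 0.0191). Fetub fell by 0.81 on the log2 scale, from 7.32 and 6.92 to 6.14 and 6.47 (adjusted p = 0.0301). The arthritic signals of both fetuins, and that of Fetub in nonarthritic pool 2, were below the olfactory 95th percentile, so these sizes too are uncertain. Hrg, a histidine-rich relative, was at -0.17 (adjusted p = 0.61). The calls of Kng1, Ahsg and Fetub were lost when any 1 pool was left out (adjusted p from 0.0577 to 0.237), and that of Kng2 without arthritic pool 1 (0.06) or 2 (0.0794). The call of Fetub also ended with quantile normalization again (0.0615).

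The proteases that stefins and cystatins bind include cysteine cathepsins and legumain. Of 11 such genes 2 rose and 0 fell in limma. At an unadjusted limma p under 0.05, 5 were higher and 1, Ctso, was lower. The share of all genes at that unadjusted level was not computed, here or for the other lists. The median log2 fold change of the 11 was 0.36, against 0.005 over all genes. Ctsk, the collagen-cutting cathepsin of osteoclasts, read 11.62 and 11.26 in nonarthritic and 12.12 and 12.10 in arthritic pools and rose by 0.67 ± 0.18 on the log2 scale (adjusted p = 0.0396). Ctsz, a carboxypeptidase, rose by 0.64 ± 0.17 on the log2 scale, from 12.22 and 12.04 to 12.89 and 12.65 (adjusted p = 0.0403). Without any 1 of the 4 pools neither was called (adjusted p from 0.0658 to 0.249), nor with probe sets of several symbols kept (0.0537 and 0.0533).

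The other 9 were not called, with log2 fold changes from -0.43 to 0.54, the highest being Ctsw of cytotoxic lymphocytes (0.54 ± 0.16, adjusted p = 0.0553). Ctsw was called with dim genes left out (0.0418), with quantile normalization again (0.0256) and with arrays centred on their medians (0.0369). Cathepsin C, Ctsc, the enzyme that cystatin F can restrain, read 11.71 and 11.75 in nonarthritic and 12.14 and 12.05 in arthritic pools (0.36 ± 0.15, adjusted p = 0.162). Legumain, Lgmn, a target of cystatins C, E/M and F, read 11.99 and 11.84 and then 12.29 and 12.45 (0.46 ± 0.16, adjusted p = 0.104; 0.0283 with an intensity-dependent prior). In 8 of the 11 cathepsin and legumain genes, Ctsw, Ctsc and Lgmn among them, both arthritic pools lay above both nonarthritic pools. In 2 of the 11 both lay below. Of all genes 30.2% lay above and 26.1% below. Of 10 serine protease genes whose products cathepsin C activates, Gzmb rose, 0 fell in limma and 2 were lower at an unadjusted p under 0.05. The neutrophil proteases Elane (-0.10), Ctsg (-0.29) and Prtn3 (0.23) were not called.

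**Figure D4:**
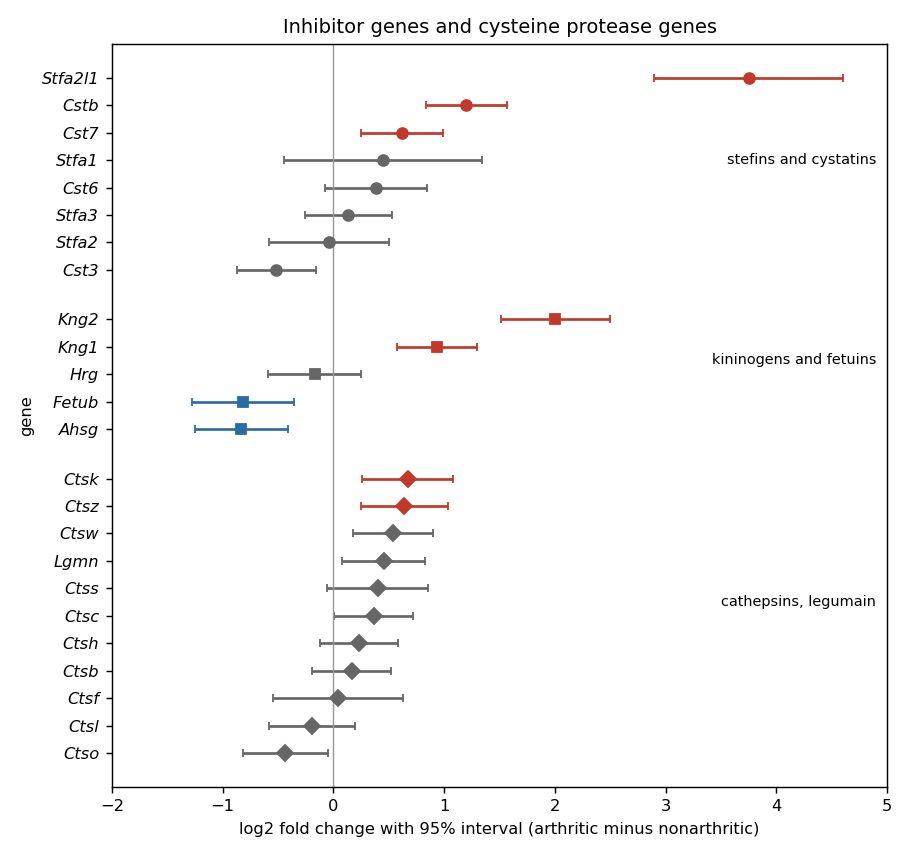
Log2 fold change (arthritic minus nonarthritic) with its 95% interval from limma for the 8 stefins and cystatins (circles), 5 kininogen and fetuin genes (squares) and 11 cysteine cathepsin and legumain genes (diamonds); red marks genes that rose, blue genes that fell and grey genes not called. The point estimates of Stfa2l1 (3.75), Kng2 (2.00), Cstb (1.20) and Kng1 (0.94) lie to the right of every protease, the highest of which is Ctsk at 0.67. The intervals of Cstb (0.83 to 1.57) and Kng1 (0.58 to 1.29) overlap that of Ctsk (0.26 to 1.08). No difference between inhibitor and protease was tested.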

How the data were processed

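The deposited values are log2 signals, 1 per probe set and array, made by the authors; the submitters' processing notes name RMA (a method of background correction, normalization between arrays and probe summary), Expression Console and Affymetrix Power Tools. Their versions were not given in the sources used here. Values ran from 2.89 to 14.27, from which a log2 scale was taken. Of 41345 probe sets, 23521 had 1 symbol and 1814 several in the platform's table. All 8 members matched RefSeq (GRCm38.p6) by gene number.

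Arthritic and nonarthritic pools were compared with limma 3.58.1 (lmFit, eBayes with a constant prior, 2-sided, no block) in R 4.3.3, with 2 residual and 5.98 prior degrees of freedom. The code was tested on simulated data. The number of arrays limits the precision. The p-values rest on spread between pools, with each gene's variance drawn towards a prior shared over all genes. With 5.98 degrees of freedom against 2, that prior weighs more than the gene's own spread. Members and lists were chosen with earlier results of these data known. Besides members, genes of the stefin, cystatin, kininogen, fetuin and cysteine protease lists were named when called or at an absolute log2 fold change of at least 0.5. Of the serine protease and marker lists, genes were drawn from the 3 largest called changes and the first 3 listed. Ctsc, Ctso, Lgmn, Ctsf, Hrg, Cstdc5, Krt10 and the genes beside the stefin cluster were added after their values were seen. So were the neutrophil genes not called. Promoter windows are RefSeq's, aligned end to end with Biopython 1.88 (match 1, mismatch -1); 1 window per gene was used for shares. A base position counts back from the annotated start.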

Additional observations from a re-analysis of the deposited data

How the results depend on the processing

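Of 86 log2 fold changes of the 8 genes under alternatives, 68 kept their direction and side of the threshold. In 10 the call was lost, in 3, all of Cst3, a call was gained, and 5 turned sign, all of genes not called. With 1 pool left out, 0 to 2 of the 8 genes rose and, of all genes, 47 to 637 rose and 105 to 584 fell, so fewer calls of any kind are made from 3 arrays; 0 of the cathepsin and legumain genes then rose. In the same fits Stfa1 ran from -0.26 to 1.15, Stfa2 from -0.38 to 0.29 and Ctsf from -0.34 to 0.43. Stfa2 turned to 0.13 with quantile normalization again and to 0.055 with arrays centred on their medians, and Ctsf to -0.0175 with quantile normalization again. Of the 8 genes, 1 fell (Cst3) with dim genes left out, with quantile normalization again and with an intensity-dependent prior. Of the serine proteases, 1 fell with a gene's probe sets averaged, with quantile normalization again and with that prior, and 2 fell with dim genes left out. No cathepsin or legumain gene rose (0) with probe sets of several symbols kept, and 3 rose with dim genes left out, with quantile normalization again, with centred arrays and with the intensity-dependent prior. Stfa2, Stfa3 and Cstdc4 have no value with dim genes left out.

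The 2 groups share pool numbers, but the labels tie no pool to another. Over 22180 genes the pool 1 minus pool 2 differences of the 2 groups had a correlation of 0.18. With the pool number as a replicate block, 1216 of all genes rose, 2 of the 8 did (Cst7 at adjusted p = 0.0563 did not), 0 cathepsin or legumain genes rose, and Fetub was not called (0.0971). Other causes of changed calls were not tested.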
